A study of Mus musculus with 8 samples.

Results

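The 38 genes examined here cover DNA replication and the cell cycle, out of 21883 protein-coding genes in a RefSeq gene table of the mouse build mm10 (GRCm38.p6). They were taken by name in 4 groups. The replication group holds 10 genes (the helicase subunits Mcm2 to Mcm7, the sliding clamp Pcna, and Tyms, Rrm1 and Rrm2 of nucleotide supply). The mitotic group holds 12 genes (Top2a, Mki67, Birc5, Aurka, Aurkb, Plk1, Bub1, Cdc20, Foxm1, Ccnb1, Ccnb2 and Cdk1). Another 12 are cyclins, cyclin-dependent kinases (CDKs) and their inhibitors (Ccna2, Ccnd1, Ccnd2, Ccnd3, Ccne1, Ccne2, Cdk2, Cdk4, Cdk6, Cdkn1a, Cdkn1b and Cdkn2c). The last 4 are the transcription factors E2f1, E2f2 and E2f3 and the retinoblastoma gene Rb1. For each gene, counts were summed over all regions overlapping 1000 bp on each side of either annotated end, called gene ends below. Apart from these, counts were summed over distal regions, which lie outside every gene-end window and have that gene's end as the nearest one within 50 kb.

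Accessible chromatin was measured by ATAC-seq, in which a transposase cuts open DNA, in type 1 conventional dendritic cells (cDC1s), the subset that presents captured antigen to CD8 T cells. All came from wild-type mice bearing B16-OVA, a transplanted melanoma line engineered to make ovalbumin as its antigen. There were 4 libraries from day 21 after tumour inoculation and 4 from day 7, and no cells from outside a tumour. Whether replicate libraries represent separate mice is not given in the labels, so the p-values describe the spread between libraries, which may be technical. In bulk libraries, fewer cells with an open site and less opening per cell cannot be told apart.

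Replication begins where the MCM helicase, loaded around DNA at origins, is switched on, and PCNA then holds the polymerases on their template. Passage into S phase is set by cyclin D with CDK4 or CDK6 and by cyclin E with CDK2, which phosphorylate RB and release E2F factors, whereas the INK4 and CIP/KIP inhibitors hold these kinases back. Mitotic genes are expressed later, when repressor complexes on their promoters give way to activators that include FOXM1. Dendritic cells arise from dividing precursors, and RNA of these genes is a common marker of cycling cells, but accessibility of a promoter is a different measure from its RNA.

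Total counts in regions ran from 14021151 to 27737040 in day 21 libraries and from 9440223 to 16063736 in day 7 libraries. Gene-end regions took 36.1% to 36.6% of counts in day 21 libraries and 37.9% to 39.3% in day 7 libraries, so day 21 libraries held a smaller share at gene ends as a whole. Of 10 cDC1 markers, 9 had regions at their ends, with Wdfy4 higher and Irf8 lower at day 21 and the other 7 not past the threshold. Over all genes tested at gene ends, 24.6% were lower and 6.71% higher at day 21. Among 23 T and NK cell markers, 14 could be tested at gene ends and 7 of them were lower at day 21 (50%), with 1 higher (7.14%). Their summed level was 108 to 122 CPM (counts scaled to a common library size) at day 21 and 118 to 137 CPM at day 7, and Lck, Ncr1, Lef1 and Foxp3 had no region at their ends. The melanoma markers summed to 197 to 207 CPM at day 21 and 195 to 209 CPM at day 7, with no region at the ends of Tyr, Slc45a2 and Oca2. Of 8 tested, Tyrp1, Sox10 and Gpnmb were lower at day 21 and Mitf and Kit higher, with Tyrp1 at 0.301 CPM at day 21 and 1.32 CPM at day 7 on average (log2 fold change -2.23 ± 0.53). Macrophage and monocyte markers summed to 223 to 249 CPM at day 21 and 208 to 224 CPM at day 7, with 5 higher and 1 lower of 18. In distal regions, 8 of 19 T and NK cell markers were lower, Lck and Lef1 among them, and 1 was higher. Klrb1c was higher at its ends and lower distally. Of cDC1 markers 5 of 8 were higher distally and none lower. Melanoma markers had 1 higher and 2 lower of 8, and macrophage and monocyte markers 4 higher and 3 lower of 18. Over all genes 18.3% were higher distally and 11.4% lower. The part of other cells and of the gene-end share in the results below was not tested.

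Promoters of cell cycle genes are known to be switched through a few short motifs. Searched on both strands in the 250 bases before the listed start were the E2F motif (TTCCCGC, where the third base and the fourth base may each be C or G), the cell cycle homology region or CHR (TTTGAA), bound by repressor and activator complexes of mitotic genes, and the CCAAT box (CCAAT), bound by the factor NF-Y. A start was listed for 30 of the 38 genes. An E2F motif stood in 11 of these (36.7%), against 7.89% of all 32851 promoters in the RefSeq table, and a CCAAT box in 21 (70%), against 33.8%. A CHR stood in 7 (23.3%), against 16% of all promoters. Among the 10876 genes with a listed start that were tested at their ends, the shares were 13.5% for E2F, 36.1% for the CCAAT box and 10.9% for the CHR. A CHR together with a CCAAT box was found at Ccnb2, Cdc20, Cdk1, E2f3, Mcm2, Mki67 and Top2a. The stretch of 150 bases before the start is shown for 4 genes with lower accessibility at day 21, 1 from replication and 3 from mitosis, and for Cdk1 and Pcna, which did not pass the test. Sequences are from RefSeq (GRCm38.p6), read 5′ to 3′ on the strand of the gene, and capitals mark the motifs.
Top2a: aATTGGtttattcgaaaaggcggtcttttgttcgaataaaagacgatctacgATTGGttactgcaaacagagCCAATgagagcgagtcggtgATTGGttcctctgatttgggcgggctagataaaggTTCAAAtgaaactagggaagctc
Mki67: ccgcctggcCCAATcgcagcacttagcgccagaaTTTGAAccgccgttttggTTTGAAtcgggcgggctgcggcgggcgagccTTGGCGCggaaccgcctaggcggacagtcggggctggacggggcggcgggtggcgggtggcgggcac
Ccnb1: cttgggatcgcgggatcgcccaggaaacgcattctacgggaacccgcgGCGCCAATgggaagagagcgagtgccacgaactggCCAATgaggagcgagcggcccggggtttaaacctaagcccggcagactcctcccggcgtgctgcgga
Mcm5: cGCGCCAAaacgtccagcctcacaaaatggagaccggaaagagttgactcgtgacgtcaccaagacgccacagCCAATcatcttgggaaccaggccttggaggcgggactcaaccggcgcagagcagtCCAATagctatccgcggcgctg
Cdk1: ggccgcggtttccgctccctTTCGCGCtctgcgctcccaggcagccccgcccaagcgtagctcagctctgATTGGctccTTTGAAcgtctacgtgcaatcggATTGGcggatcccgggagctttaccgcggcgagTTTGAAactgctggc
Pcna: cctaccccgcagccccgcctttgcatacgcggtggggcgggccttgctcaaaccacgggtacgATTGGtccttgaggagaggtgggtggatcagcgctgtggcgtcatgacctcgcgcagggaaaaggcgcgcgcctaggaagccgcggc

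These stretches are chr11:99024190-99024339 for Top2a, chr7:135716380-135716529 for Mki67, chr13:100786487-100786636 for Ccnb1, chr8:75109359-75109508 for Mcm5, chr10:69352913-69353062 for Cdk1 and chr2:132253181-132253330 for Pcna, with Mcm5 on the plus strand and the others on the minus strand. ATTGG and TTCAAA are the CCAAT box and the CHR read on the opposite strand, and GCGCCAA is an E2F motif read in that way. In Ccnb1 the E2F motif overlaps the CCAAT box that follows it. The Top2a stretch holds 4 CCAAT boxes and 1 CHR, and the Cdk1 stretch 2 CCAAT boxes, 2 CHRs and 1 E2F motif, so motifs of the same kinds stand at a promoter that was lower at day 21 and at one that was not past the threshold. Over the full 250 bases, a CHR stood in 3 of 10 members lower at gene ends (30%) and in 4 of 19 that did not pass (21.1%). An E2F motif stood in 4 of these 10 (40%) and in 6 of these 19 (31.6%). A match is a run of letters and was not tested as a binding site.

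At gene ends, 37 of the 38 genes had regions, and all 37 passed the filter on low counts. None was higher at day 21, 12 were lower and 25 did not pass the threshold, an adjusted p of 0.05 in edgeR's quasi-likelihood test over 13569 genes. At an unadjusted p under 0.05, 16 were lower and still 0 higher, and DESeq2 and limma-voom also called 0 higher. The lower genes were Mcm2, Mcm5, Mcm6, Top2a, Mki67, Aurka, Aurkb, Foxm1, Ccnb1, Ccne1, Cdk4 and E2f1. They made up 32.4% of the genes tested in the list, while 24.6% of all genes were lower at their ends and 6.71% were higher (31.3% in either direction). Day 21 libraries all lay below day 7 libraries at 11 of the 37 genes, against 20.6% of all genes, and all above at 1, Cdkn2c, against 5.95%. The median log2 fold change was -0.11 over the 37 genes and -0.09 over all genes. The list's median thus lay within 0.02 of that of all genes. A scaling that removes the trend of fold change with level (trended offsets) left 2 lower, Mcm5 and Top2a, and 2 higher, Ccnd1 and Cdkn2c. Under that scaling 12.3% of all genes were lower and 11.9% higher, and the median was -0.03 over the 37 genes and -0.01 over all genes.

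**Figure D1:**
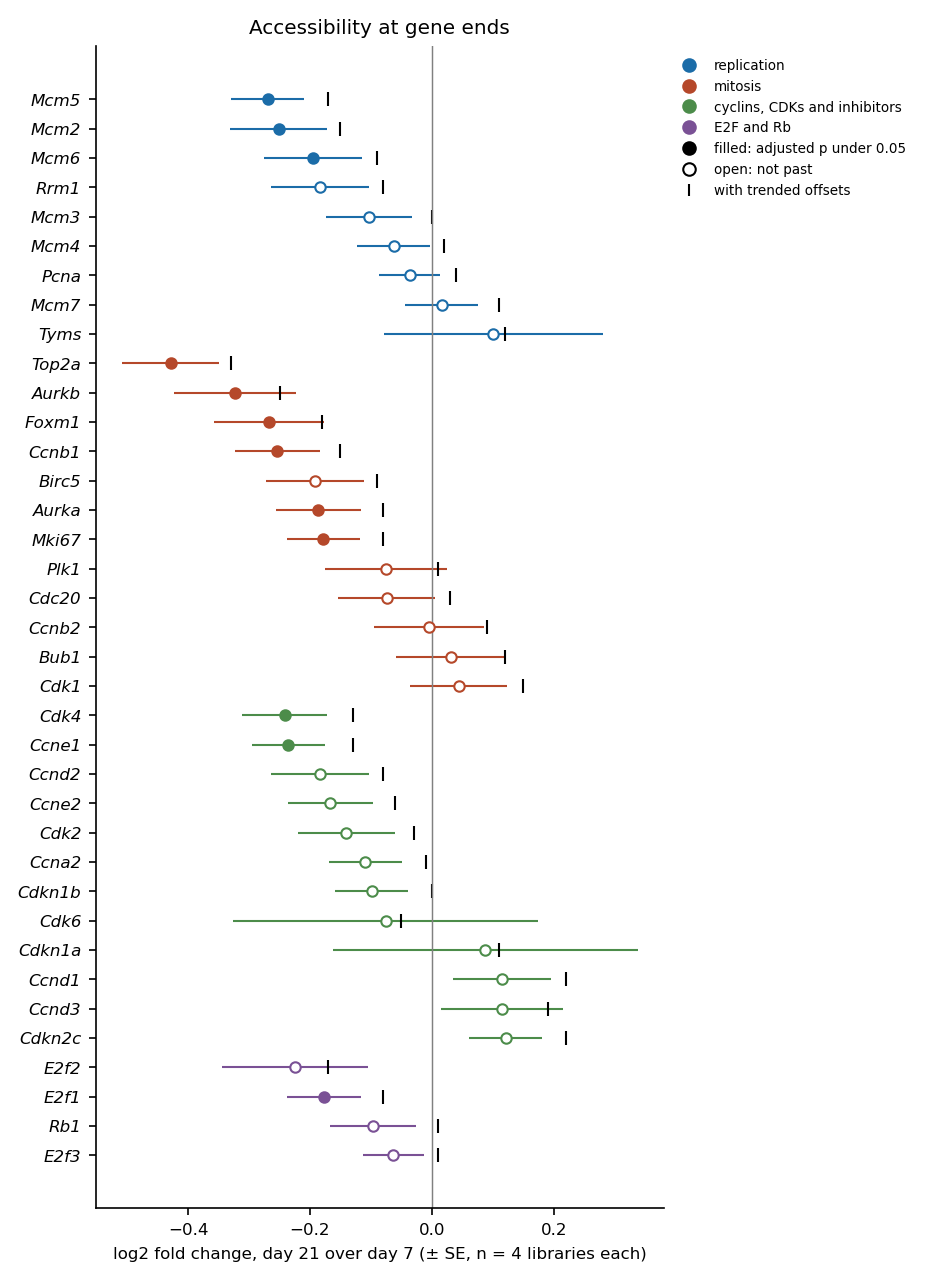
Log2 fold changes at gene ends, day 21 over day 7, for 37 genes in their 4 groups, with the standard error as bars (n = 4 libraries each) and filled points for an adjusted p under 0.05. The 12 filled points all lie left of 0, Top2a farthest at -0.43, and the black ticks of the fit with trended offsets lie to the right of the points.

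Among replication genes, Mcm5 and Mcm2 had the lowest log2 fold changes. Mcm5, a subunit of the helicase ring, had 48.1, 53.4, 48.7 and 46.1 CPM at its ends in day 21 libraries, against 57.4, 61.1, 57.3 and 60.4 CPM in day 7 libraries. All day 21 values were below all day 7 values, and the log2 fold change was -0.27 ± 0.06 (SE, adjusted p = 8.99e-04), a call that held in all 21 alternatives tried. The counts came mostly from the region over its start (chr8:75109217-75109722), which was itself lower by a log2 fold change of -0.29 ± 0.07 (adjusted p = 0.00227 over 121865 regions). Mcm2, another subunit, had 24.5, 29.5, 35.2 and 29.7 CPM in day 21 libraries, against 36.2, 34.0, 37.6 and 34.1 CPM in day 7 libraries (log2 fold change -0.25 ± 0.08, adjusted p = 0.0144). The days overlapped for Mcm2, since day 21 replicate 3 was above 2 of the day 7 libraries. Its call was lost without day 21 replicate 1 (adjusted p = 0.0817) or day 7 replicate 3 (adjusted p = 0.0584) and with trended offsets (0.169). The Mcm2 region lies at chr6:88898475-88899006 over the start.

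Mcm6 was at the edge of the threshold. It averaged 32.2 ± 2.54 CPM at day 21 and 37.0 ± 3.19 CPM at day 7 (SD, n = 4 libraries each), with an adjusted p of 0.0464. This call was lost in 10 of 21 alternatives, including DESeq2 (0.0581), limma-voom (0.0584) and trended offsets (0.415). Among these 10 were also the fits without day 21 replicate 1 (0.124), day 21 replicate 3 (0.0581), day 7 replicate 2 (0.138), day 7 replicate 3 (0.14) or day 7 replicate 4 (0.0695). The other subunits did not pass. Mcm3 had a log2 fold change of -0.10 ± 0.07, although its adjusted p fell to 0.0421 without day 21 replicate 3. Mcm4, whose ends share a region with Prkdc, stood at -0.06 ± 0.06 and Mcm7, which shares with Ap4m1, at 0.02 ± 0.06. The 6 genes encode 1 ring, yet only 3 of them passed the test, and differences between them were not tested.

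Pcna, the clamp, had 102, 108, 101 and 98.1 CPM in day 21 libraries, against 107, 102, 107 and 103 CPM in day 7 libraries. These values interleave, with a log2 fold change of -0.04 ± 0.05 (adjusted p = 0.645), and its region is shared with Cds2. Of the nucleotide genes, Rrm1, the large subunit of ribonucleotide reductase, averaged 31.5 ± 2.72 CPM at day 21 and 35.7 ± 1.29 CPM at day 7. All its day 21 values were below those of day 7, but the adjusted p was 0.06 (0.0397 without day 21 replicate 2 and 0.0241 without day 21 replicate 3). Rrm1 passed in 6 of 21 alternatives, limma-voom (0.046) included. A weak region at the far end of Rrm1, chr7:102469655-102469855, was lower by itself (log2 fold change -1.29 ± 0.48, adjusted p = 0.0457). It averaged 0.511 CPM at day 21 and 1.26 CPM at day 7, and the days overlapped. Tyms, thymidylate synthase, averaged 6.22 ± 1.15 CPM at day 21 and 5.74 ± 0.585 CPM at day 7 (adjusted p = 0.703). It passed as higher in 1 of 21 alternatives, windows of 2000 bp (0.0102). Rrm2, the small subunit of the reductase, had no region at either end.

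In the mitotic group 6 of 12 genes were lower at their ends, among them Top2a, which had the lowest log2 fold change of the 37. Top2a, the topoisomerase that untangles sister chromatids, had 22.2, 25.0, 25.4 and 22.5 CPM at its ends in day 21 libraries, against 31.6, 32.1, 34.7 and 29.8 CPM in day 7 libraries. The days were well apart, with a log2 fold change of -0.43 ± 0.08 (adjusted p = 5.56e-05) that was called in all 21 alternatives, trended offsets included (-0.33, adjusted p = 0.00157). The region over its start, chr11:99023982-99024583, holds the promoter stretch shown above and was lower by -0.47 ± 0.09 on the log2 scale (adjusted p = 5.29e-05). Aurkb, the kinase of the chromosomal passenger complex, had 16.9, 15.5, 13.3 and 15.9 CPM in day 21 libraries, against 18.3, 19.1, 20.0 and 19.5 CPM in day 7 libraries. Again no library of one day reached the other (log2 fold change -0.32 ± 0.10, adjusted p = 0.0114, and 0.0599 with trended offsets).

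Ccnb1, the cyclin B that drives entry into mitosis, had 36.6, 44.0, 39.8 and 41.0 CPM in day 21 libraries, against 44.9, 50.5, 50.9 and 46.8 CPM in day 7 libraries. Its values did not overlap either, and the log2 fold change was -0.25 ± 0.07 (adjusted p = 0.00399, but 0.0555 after thinning to the smallest library and 0.088 with trended offsets). The single region behind it is chr13:100786388-100786936. Mki67, which encodes the proliferation antigen Ki-67 that coats mitotic chromosomes, had 63.8, 65.5, 68.8 and 64.8 CPM in day 21 libraries, against 70.5, 82.9, 74.5 and 70.5 CPM in day 7 libraries. The days stayed apart by a small margin, with a log2 fold change of -0.18 ± 0.06 (adjusted p = 0.0183). The adjusted p was 0.116 without day 7 replicate 2, its highest library, and 0.256 with trended offsets. For Mki67 the start region alone (chr7:135715610-135716859) did not pass (adjusted p = 0.0502).

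Foxm1, the transcription factor that activates late cell cycle genes, had 20.5, 17.8, 19.4 and 20.2 CPM in day 21 libraries, against 22.4, 22.1, 23.8 and 25.3 CPM in day 7 libraries (log2 fold change -0.27 ± 0.09, adjusted p = 0.0206). The days did not overlap. Its region is shared with Rhno1, and the call was lost without day 21 replicate 2 (adjusted p = 0.076) or day 7 replicate 4 (adjusted p = 0.098), after thinning to the smallest library (0.134) and with trended offsets (0.143). Aurka, the spindle pole kinase, averaged 41.0 ± 0.997 CPM at day 21 and 46.4 ± 4.72 CPM at day 7 (adjusted p = 0.037), in a region it shares with Cstf1. Aurka lost its call without day 7 replicate 4 (adjusted p = 0.306), its highest library, and without day 21 replicate 2 (0.089), day 21 replicate 4 (0.0718) or day 7 replicate 3 (0.0692). With trended offsets it was lost as well (0.401).

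The other 6 mitotic genes did not pass. Cdk1, the kinase partner of cyclin B, had 31.4, 34.6, 32.3 and 30.4 CPM in day 21 libraries, against 28.7, 32.1, 31.7 and 32.2 CPM in day 7 libraries. These overlapped, with a log2 fold change of 0.04 ± 0.08 (adjusted p = 0.71), while its cyclin Ccnb1 was lower. The second B-type cyclin, Ccnb2, averaged 22.1 ± 1.75 CPM at day 21 and 22.1 ± 2.27 CPM at day 7. Birc5, which encodes survivin of the passenger complex, had a log2 fold change of -0.19 ± 0.08 (adjusted p = 0.0584), which passed without day 21 replicate 3 (0.0215), day 7 replicate 1 (0.0453) or day 7 replicate 2 (0.0338). In all, Birc5 passed in 7 of 21 alternatives, limma-voom (0.0408) included. Plk1, Bub1 and Cdc20, a mitotic kinase, a spindle checkpoint kinase and an activator of the anaphase-promoting complex, lay between -0.08 and 0.03 on the log2 scale.

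**Figure D2:**
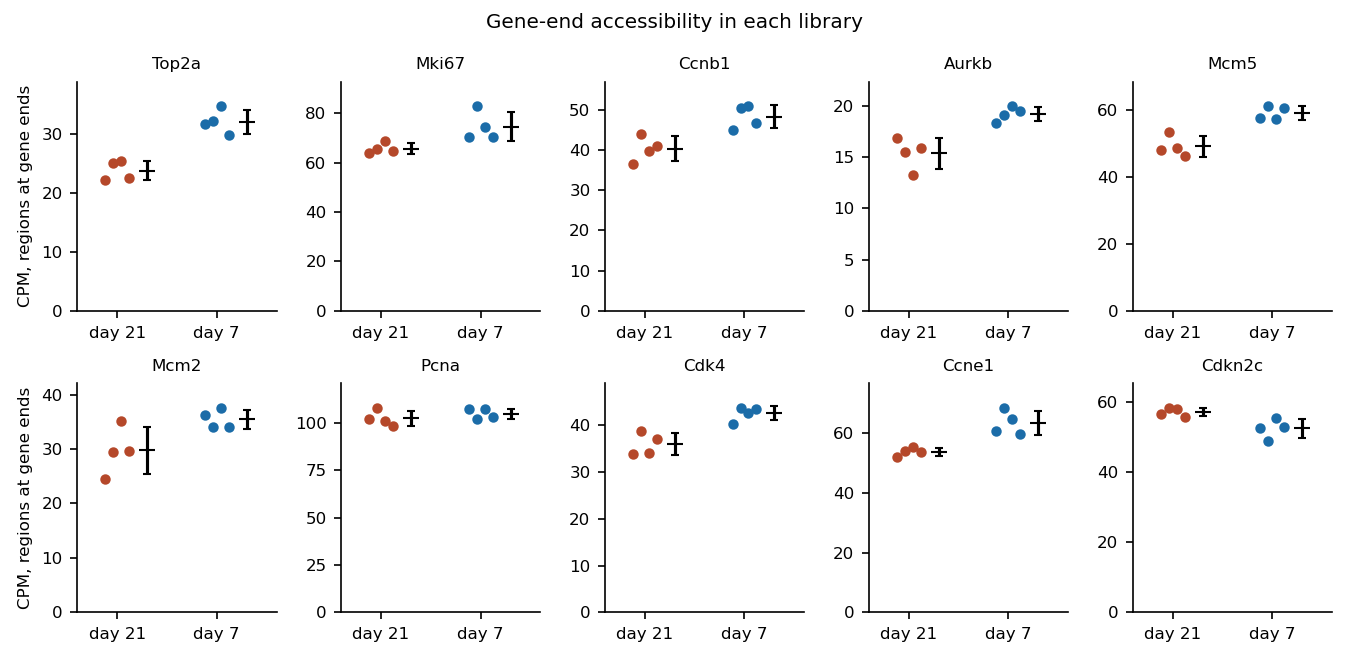
CPM at gene ends in each library for 10 genes, day 21 left and day 7 right, with the mean and SD of 4 libraries beside the points; every axis starts at 0. For Top2a, Mki67, Ccnb1, Aurkb, Mcm5, Cdk4 and Ccne1 all day 21 points lie below all day 7 points, Cdkn2c shows the opposite order without passing the test, and Pcna and Mcm2 overlap.

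Of the 12 cyclins, CDKs and inhibitors, Ccne1 and Cdk4 were lower at day 21 and 10 did not pass. Ccne1, the cyclin E that activates CDK2 at the start of S phase, had 51.9, 54.1, 55.3 and 53.8 CPM in day 21 libraries, against 60.7, 68.6, 64.9 and 59.8 CPM in day 7 libraries. The days did not overlap (log2 fold change -0.24 ± 0.06, adjusted p = 0.00266, and 0.067 with trended offsets). Cdk4, the partner of D-type cyclins, had 33.8, 38.7, 34.0 and 36.9 CPM in day 21 libraries, against 40.3, 43.7, 42.6 and 43.4 CPM in day 7 libraries. It was separated in the same way (log2 fold change -0.24 ± 0.07, adjusted p = 0.00735, and 0.141 with trended offsets). Their start regions are chr7:38107321-38108210 and chr10:127063094-127064020. For Ccne1, Cdk4 and Aurkb, trended offsets were the only alternative that ended the call.

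The D-type cyclins, which bind CDK4 and CDK6, did not pass at their ends. Ccnd1 had 34.2, 38.5, 39.1 and 35.2 CPM in day 21 libraries, against 32.1, 33.6, 35.8 and 34.1 CPM in day 7 libraries. Day 21 replicates 2 and 3 lay above all day 7 values and the other day 21 libraries within the day 7 range (log2 fold change 0.11 ± 0.08, adjusted p = 0.247, and 0.0144 with trended offsets). Ccnd2 had 25.0, 35.6, 32.4 and 29.4 CPM in day 21 libraries, against 36.3, 34.5, 29.9 and 38 CPM in day 7 libraries. Its libraries spread widely on both days (log2 fold change -0.18 ± 0.08, adjusted p = 0.0873), and it passed without day 21 replicate 2 (0.0261), day 21 replicate 3 (0.0397) or day 7 replicate 3 (0.0319). Ccnd3 had 17.7, 19.0, 20.7 and 20.4 CPM in day 21 libraries, against 17.9, 15.5, 18.8 and 19.4 CPM in day 7 libraries. The ranges overlapped (log2 fold change 0.12 ± 0.10, adjusted p = 0.392). Alternatives went both ways. With windows at the listed starts alone, an internal start included, the value turned to -0.19 (adjusted p = 0.0175). Ccnd3 was called higher with windows of 500 bp (0.0213) and with only the end of more counts (0.0435).

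Ccna2, the cyclin A of S and G2 phase, had 72.6, 77.7, 63.0 and 65.6 CPM in day 21 libraries, against 68.1, 75.1, 76.9 and 79.6 CPM in day 7 libraries, with a region shared with Bbs7. The days overlapped (adjusted p = 0.181). Ccne2, the second cyclin E, and Cdk2 had log2 fold changes of -0.17 ± 0.07 (adjusted p = 0.0637) and -0.14 ± 0.08 (adjusted p = 0.162). Both passed without day 21 replicate 3 (0.0126 for Ccne2 and 0.0339 for Cdk2), and Ccne2 also without day 7 replicate 1 (0.0156). At the Cdk6 ends only 3.30, 3.97, 2.59 and 2.81 CPM were counted in day 21 libraries, against 2.91, 4.89, 2.87 and 2.86 CPM in day 7 libraries. These low values overlapped (adjusted p = 0.847), and the listed Cdk6 start lies in a larger region outside the windows, described below.

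Of the inhibitors, Cdkn1a encodes p21, the p53 target that blocks CDK2. Its ends held 3.45, 3.61, 3.24 and 2.74 CPM in day 21 libraries, against 2.49, 2.97, 2.87 and 3.73 CPM in day 7 libraries. No order of the days was visible at this level (adjusted p = 0.82). Cdkn1b, which encodes p27, had 75.0, 68.2, 74.3 and 69.7 CPM in day 21 libraries, against 75.3, 76.0, 79.2 and 76.7 CPM in day 7 libraries. The day 7 values were the higher ones without overlap, but the difference was small and did not pass (log2 fold change -0.10 ± 0.06, adjusted p = 0.194). Cdkn2c, which encodes the CDK4 and CDK6 inhibitor p18, had 56.7, 58.4, 57.9 and 55.7 CPM in day 21 libraries, against 52.6, 48.9, 55.4 and 53.0 CPM in day 7 libraries. Here the day 21 values were all above those of day 7 (log2 fold change 0.12 ± 0.06, adjusted p = 0.138, and 0.00253 with trended offsets).

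Of the 4 factors at the restriction point, only E2f1 was lower. E2f1, an activating E2F, had 70.8, 72.4, 73.1 and 68.3 CPM in day 21 libraries, against 70.9, 87.0, 82.1 and 81.8 CPM in day 7 libraries. Day 7 replicate 1 lay among the day 21 values and the other day 7 libraries above them (log2 fold change -0.18 ± 0.06, adjusted p = 0.0182). The call was lost with trended offsets (0.231) and without day 21 replicate 4 (0.0543), day 7 replicate 2 (0.0819), day 7 replicate 3 (0.0565) or day 7 replicate 4 (0.0574). E2f2, also an activator, had 11.3, 10.4, 14.4 and 13.1 CPM in day 21 libraries, against 15.0, 13.0, 15.9 and 13.9 CPM in day 7 libraries (adjusted p = 0.133, and 0.0385 without day 21 replicate 3). Rb1, the E2F-binding repressor, had 43.1, 45.9, 49.8 and 43.4 CPM in day 21 libraries, against 42.2, 50.6, 49.5 and 52.3 CPM in day 7 libraries. Both overlapped between the days, as did E2f3 at -0.06 ± 0.05 on the log2 scale, and Rb1 stood at -0.10 ± 0.07 (adjusted p = 0.303).

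Across groups, 3 of 9 replication genes (33.3%), 6 of 12 mitotic genes (50%), 2 of 12 cyclins, CDKs and inhibitors (16.7%) and 1 of 4 E2F and Rb genes (25%) were lower at their ends, beside the 24.6% over all genes. Median log2 fold changes were -0.10, -0.18, -0.10 and -0.14 in the same order. As a level in each library, the median deviation from the day 7 mean on the log2 scale was -0.17, -0.14, -0.12 and -0.20 for the mitotic genes in day 21 libraries, against -0.10, 0.00, 0.04 and 0.12 in day 7 libraries. For the replication genes it was -0.17, -0.06, -0.05 and -0.13 in day 21 libraries, against -0.02, 0.04, 0.03 and -0.02 in day 7 libraries. Over all genes tested it was -0.11, -0.07, -0.05 and -0.10 in day 21 libraries, against -0.04, 0.03, 0.02 and 0.00 in day 7 libraries. Day 21 lay below day 7 without overlap in these 3 sets, while the cyclins, CDKs and inhibitors overlapped. The counts and medians of single groups moved with the libraries used. Without day 21 replicate 1 or without day 7 replicate 3, 1 replication gene was lower, and without day 21 replicate 3 the replication median was -0.18 and 5 cyclins, CDKs and inhibitors were lower. Without day 7 replicate 4 the mitotic median was -0.11 with 4 genes lower, without day 21 replicate 2 also 4 mitotic genes were lower, and with regions of a single gene only the medians were -0.19 for replication and -0.13 for mitosis. With upper-quartile scaling 7 cyclins, CDKs and inhibitors and 7 mitotic genes were lower, while lower genes among all 13569 rose from 3338 to 5002. With trended offsets 1 replication gene, 1 mitotic gene and none of the other groups were lower, and the medians came to 0.00 for replication, -0.08 for mitosis, -0.02 for cyclins, CDKs and inhibitors and -0.04 for E2F and Rb. Differences between the groups were not tested.

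**Figure D3:**
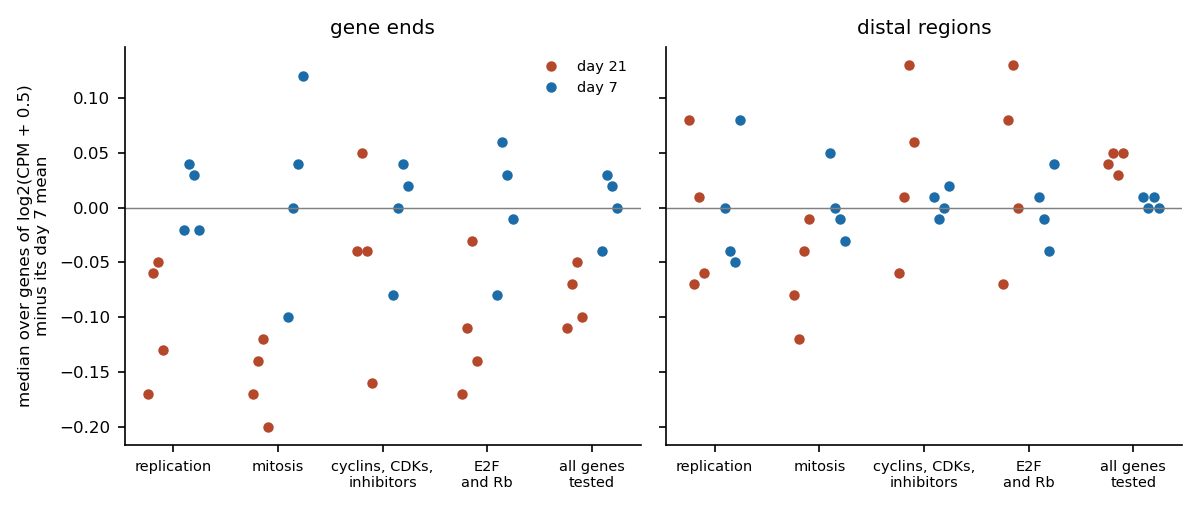
Median over the genes of each group of log2(CPM + 0.5) minus the gene's day 7 mean, 1 point per library, at gene ends and in distal regions, day 21 left of day 7. At gene ends the mitotic genes sit at -0.12 or lower in all day 21 libraries, whereas all genes tested sit between -0.11 and -0.05 there; distal points mix for every group of members.

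Distal regions gave a mixed pattern, with members on both sides. Of the 38 genes, 27 had a distal region and 11 had none (Mcm7, Pcna, Top2a, Birc5, Aurka, Plk1, Cdc20, Ccnb1, Ccna2, Cdk4 and E2f1). At day 21, 8 were higher (29.6%) and 6 lower (22.2%), with 13 not past the threshold, against 18.3% higher and 11.4% lower over 14483 genes (29.7% in either direction). All day 21 libraries lay above those of day 7 at 7 genes, against 16.5% of all genes, and below at 4, against 10.4%. The median log2 fold change was 0.02 over the 27 genes and 0.04 over all genes, and the median over the 27 turned to -0.03 with trended offsets and -0.04 with upper-quartile scaling. By group, 3 of 8 replication genes were higher and 1 lower, 1 of 6 mitotic genes was higher and 2 lower, 3 of 10 cyclins, CDKs and inhibitors were higher and 3 lower, and 1 of 3 E2F and Rb genes was higher. The nearest gene is a rule of distance, and whether a region acts on that gene was not measured.

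**Figure D4:**
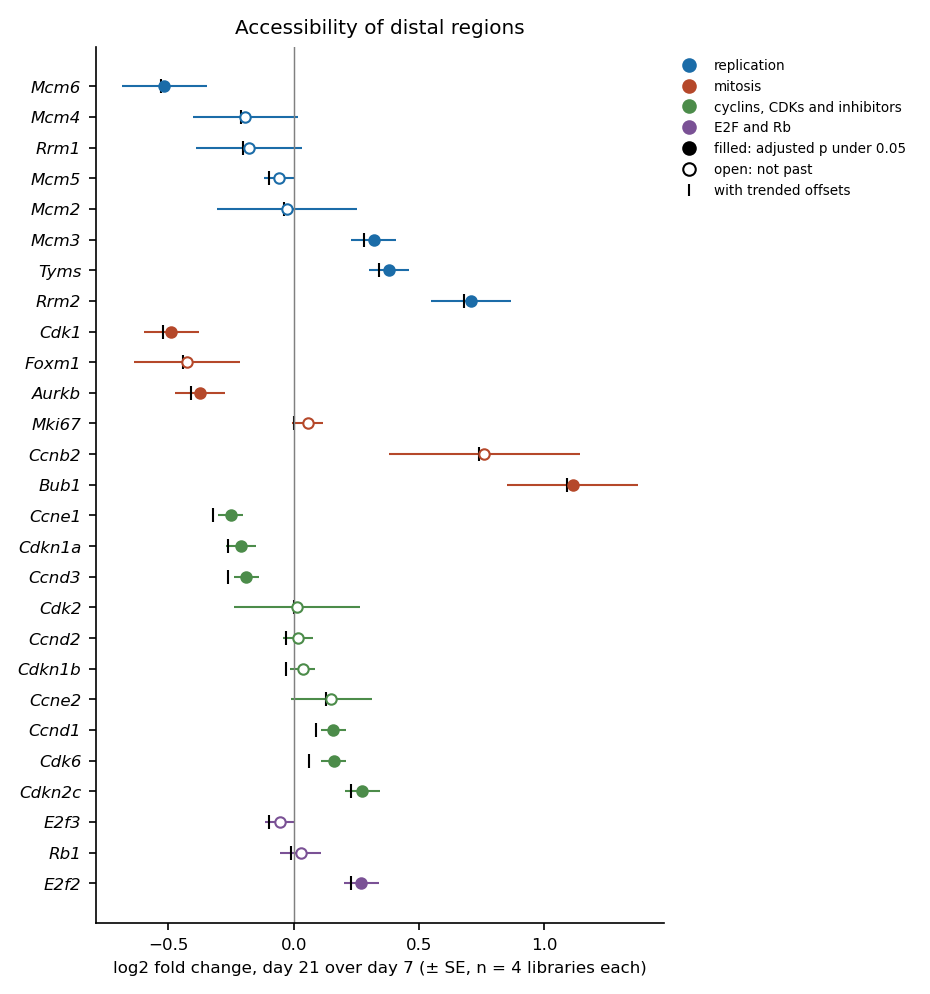
Log2 fold changes of distal sums, day 21 over day 7, for 27 genes with the standard error as bars (n = 4 libraries each), filled for an adjusted p under 0.05. Filled points lie on both sides of 0, from Mcm6 at -0.52 to Bub1 at 1.11.

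Counted over single regions, none of the 55 gene-end regions of the members was higher (1 at an unadjusted p under 0.05) and 12 were lower (21.8%), while 16.6% of all 17631 gene-end regions tested were lower and 6.64% higher. Over all 121865 regions tested, 9.86% were lower and 9.5% higher. Of 195 distal or intragenic regions tested, 29 were higher and 19 lower (24.6% in either direction), against 9.98% higher and 8.72% lower over the 104234 regions outside gene ends and 19.4% in either direction over all regions. Inside gene bodies the counts were 23 higher and 9 lower of 107. Of these, Cdk6 alone gave 11 higher and 1 lower of 28, and the share over all gene-body regions was not computed. The regions over the starts of Mcm2, Mcm5, Top2a, Ccnb1 and Cdk4 kept their calls when trended offsets were fitted over all regions (adjusted p between 4.60e-06 and 0.0103), and that of E2f1 did not (0.114), in a fit where 19.2% of all regions were called. For Mcm2, Ccnb1 and Cdk4 this region is the whole gene-end sum. Trended offsets fitted over gene-end sums ended those calls (adjusted p = 0.169, 0.088 and 0.141), so these calls depend on the set the trend is fitted over.

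Near replication genes, 3 distal sums were higher and 1 was lower. Rrm2 had 10.8, 11.1, 7.54 and 11.3 CPM in day 21 libraries, against 7.39, 4.25, 5.73 and 7.21 CPM in day 7 libraries, all from 1 region at chr12:24758248-24758787, which is 44371 bp from the gene. The days were apart, though day 21 replicate 3 came close to day 7 (log2 fold change 0.71 ± 0.16, adjusted p = 2.46e-04). Tyms had 38.6, 42.1, 39.4 and 39.6 CPM in day 21 libraries, against 28.1, 27.5, 33.4 and 33.2 CPM in day 7 libraries. Both of its regions were higher, and the sum changed by 0.38 ± 0.08 on the log2 scale (adjusted p = 1.10e-04). Mcm3 had 28.1, 26.4, 22.0 and 27.9 CPM in day 21 libraries, against 22.1, 21.5, 18.9 and 21.3 CPM in day 7 libraries (log2 fold change 0.32 ± 0.09, adjusted p = 0.00613). Only day 21 replicate 3 fell within the day 7 range, and no single Mcm3 region passed. Mcm6 went the other way, with 4.5, 4.57, 5.54 and 4.13 CPM in day 21 libraries, against 6.98, 6.37, 5.73 and 7.46 CPM in day 7 libraries. The days did not overlap (log2 fold change -0.52 ± 0.17, adjusted p = 0.0187), but the call was lost without day 21 replicate 4 (0.071) or day 7 replicate 4 (0.0843). The single Mcm2 distal region had 2.67, 2.05, 2.42 and 2.13 CPM at day 21 and 2.33, 2.76, 2.70 and 1.74 CPM at day 7 (adjusted p = 0.956). The Mcm5 distal sum had 54.1, 58.4, 60.5 and 60.2 CPM at day 21 and 61.4, 59.7, 59.3 and 62.8 CPM at day 7 (adjusted p = 0.518), so neither gene that was lower at its start differed past the threshold in its distal sum.

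Near mitotic genes, Cdk1 and Aurkb were lower and Bub1 was higher. The Cdk1 distal sum was 21.4, 16.2, 13.3 and 18.2 CPM in day 21 libraries, against 28.3, 25.2, 21.8 and 21.7 CPM in day 7 libraries. The days did not overlap (log2 fold change -0.49 ± 0.11, adjusted p = 2.32e-04), whereas the Cdk1 ends did not pass. Among its 7 regions a single one passed by itself, at chr10:69359193-69359603, 6486 bp from the gene. That region had 4.29, 3.37, 3.42 and 4.20 CPM in day 21 libraries, against 9.64, 9.77, 8.09 and 8.95 CPM in day 7 libraries. Every day 21 value was below 5 CPM and every day 7 value above 8 CPM (log2 fold change -1.25 ± 0.17, adjusted p = 4.64e-08).

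Aurkb was lower both at its ends and in its distal sum, which was 18.0, 17.6, 16.1 and 17.7 CPM in day 21 libraries, against 23.2, 22.9, 21.8 and 22.2 CPM in day 7 libraries. These were tight and apart (log2 fold change -0.37 ± 0.10, adjusted p = 0.00173), and 2 of 4 regions passed, the first at chr11:69040903-69041291 with -0.66 ± 0.17 (adjusted p = 0.00341). Bub1 had 4.08, 3.13, 4.24 and 3.56 CPM in day 21 libraries, against 1.83, 1.70, 1.85 and 1.55 CPM in day 7 libraries. Its 2 weak regions inside the gene were both higher, the stronger at chr2:127817197-127817476 (1.36 ± 0.42, adjusted p = 0.014), and the sum changed by 1.11 ± 0.26 on the log2 scale (adjusted p = 4.48e-04). Mki67 had 91.8, 98.2, 98.1 and 92.0 CPM at day 21 and 96.5, 82.1, 93.1 and 93.1 CPM at day 7 (adjusted p = 0.499). Within it, 1 of 7 regions was higher, an intragenic one at chr7:135699253-135699728 (0.44 ± 0.16, adjusted p = 0.0363). Foxm1 had 2.81, 2.77, 4.24 and 4.80 CPM at day 21 and 4.73, 4.04, 6.07 and 5.09 CPM at day 7 (adjusted p = 0.111, and 0.0412 without day 21 replicate 4).

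The cyclins, CDKs and inhibitors held most of the distal counts. Ccne1 was lower in its distal sum as at its start, with 110, 109, 115 and 110 CPM in day 21 libraries, against 131, 139, 128 and 132 CPM in day 7 libraries. The gap between the days was wide (log2 fold change -0.25 ± 0.05, adjusted p = 8.34e-05). Of 14 regions, 3 were lower and none higher, the strongest at chr7:38084735-38085420, 12907 bp from the gene. It had 48.0, 49.5, 52.9 and 48.4 CPM in day 21 libraries, against 59.5, 71.9, 61.8 and 62.5 CPM in day 7 libraries (log2 fold change -0.36 ± 0.07, adjusted p = 4.61e-05). No library of day 21 reached a day 7 value there.

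Ccnd3 had a distal sum of 125, 116, 137 and 123 CPM in day 21 libraries, against 144, 130, 150 and 146 CPM in day 7 libraries (log2 fold change -0.19 ± 0.05, adjusted p = 0.00404). Only day 21 replicate 3 rose above the lowest day 7 library. A region 41106 bp inside the gene, chr17:47545972-47546343, had 1.9, 1.08, 1.06 and 0.712 CPM in day 21 libraries, against 4.82, 3.72, 3.96 and 4.04 CPM in day 7 libraries. It was low on both days and much lower at day 21, with the lowest log2 fold change among the named regions (-1.85 ± 0.28, adjusted p = 4.47e-07). The table lists starts of Ccnd3 far apart. At the first, chr17:47504902-47505273, the region did not pass (0.33 ± 0.13, adjusted p = 0.0735), and at the internal one, chr17:47593162-47593922, it was lower (-0.36 ± 0.08, adjusted p = 3.08e-04). The internal start had 30.2, 32.9, 29.1 and 33.5 CPM in day 21 libraries, against 38, 42.1, 39.3 and 42.6 CPM in day 7 libraries, with no overlap. It falls outside the gene-end and distal sums, since the end of another gene is nearer.

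Cdk6 was the member with the most regions. Its distal sum was 253, 230, 277 and 242 CPM in day 21 libraries, against 225, 224, 223 and 224 CPM in day 7 libraries. Day 7 libraries agreed within 2 CPM while day 21 libraries spread above them (log2 fold change 0.16 ± 0.05, adjusted p = 0.00761). The call on the sum was lost without day 21 replicate 3 (0.0845), with trended offsets (0.262) and with upper-quartile scaling (0.083), and within 25 kb the value was -0.02. Of 35 single regions tested around the gene, 11 were higher and 1 was lower, with some of the higher ones in the gene body outside the distal sum. The strongest, chr5:3460264-3460782, lies in the gene body and is not part of the distal sum. It had 23.0, 32.8, 34.4 and 26.4 CPM in day 21 libraries, against 17.2, 14.9, 17.5 and 18.5 CPM in day 7 libraries. All day 21 values were higher (log2 fold change 0.77 ± 0.10, adjusted p = 2.60e-08). The region over the listed start, chr5:3342209-3344726, did not pass (0.13 ± 0.08, adjusted p = 0.218), so the higher regions lay inside the gene rather than at its start.

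**Figure D5:**
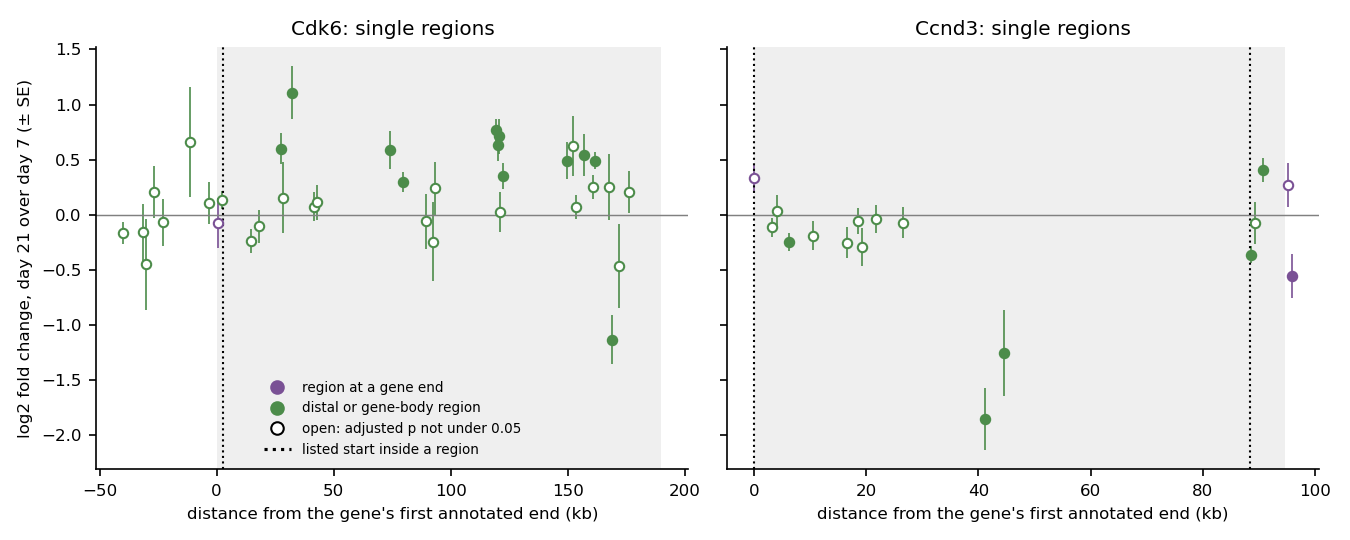
Log2 fold changes (± SE, n = 4 libraries each) of single regions by distance from the first annotated end of Cdk6 and Ccnd3, with the gene shaded, filled points for an adjusted p under 0.05 and dotted lines at listed starts that lie in a region. In Cdk6, 11 filled points lie above 0 and 1 below; in Ccnd3, most filled points lie below 0, down to -1.85.

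Ccnd1 had 129, 141, 138 and 133 CPM in its distal regions in day 21 libraries, against 111, 125, 126 and 123 CPM in day 7 libraries. The days were apart by a small margin (log2 fold change 0.16 ± 0.05, adjusted p = 0.0147), and the call was lost in 7 of 19 alternatives, among them trended offsets (0.136) and leaving out day 21 replicate 2 (0.0657) or day 7 replicate 1 (0.113). Its strongest region, chr7:144981656-144982151, is 42072 bp from the gene (0.29 ± 0.09, adjusted p = 0.0146). Ccnd2 had 69.9, 77.3, 73.7 and 68.3 CPM at day 21 and 76.8, 65.0, 71.4 and 71.6 CPM at day 7, which overlapped (adjusted p = 0.865). Single regions of Ccnd2 nevertheless moved in both directions. The region at its higher-coordinate end, chr6:127152268-127152806, was lower, with 7.81, 12.8, 12.5 and 10.1 CPM in day 21 libraries, against 15.5, 17.5, 11.7 and 15.3 CPM in day 7 libraries (-0.47 ± 0.13, adjusted p = 0.00623). Only day 7 replicate 3 fell among the day 21 values.

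The inhibitors differed among themselves. Cdkn1a was lower in its distal sum, with 68.6, 64.0, 79.5 and 64.5 CPM in day 21 libraries, against 75.3, 85.9, 80 and 78.7 CPM in day 7 libraries. Day 21 replicate 3 lay within the day 7 range and the other day 21 libraries below it (log2 fold change -0.21 ± 0.06, adjusted p = 0.00671, and 0.0725 after thinning to the smallest library). The strongest Cdkn1a region, chr17:29093547-29093930, covers the second listed start. It had 10.7, 8.9, 11 and 10 CPM in day 21 libraries, against 14, 17, 13.3 and 15.5 CPM in day 7 libraries, with no overlap (-0.56 ± 0.12, adjusted p = 4.72e-04). Cdkn2c was higher, with 49.9, 50.7, 48.9 and 56.4 CPM in day 21 libraries, against 46.4, 44.3, 37.7 and 42.5 CPM in day 7 libraries. All day 21 values exceeded those of day 7 (log2 fold change 0.27 ± 0.07, adjusted p = 0.00188), with the strongest region at chr4:109646961-109647523 (0.47 ± 0.14, adjusted p = 0.0115). Cdkn1b had 127, 136, 138 and 130 CPM at day 21 and 126, 128, 131 and 132 CPM at day 7 and none of its 7 distal or intragenic regions passed (adjusted p of the sum = 0.639).

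E2f2 was higher in its distal regions, with 55.0, 60.5, 53.6 and 57.6 CPM in day 21 libraries, against 47.1, 46.3, 42.3 and 51.8 CPM in day 7 libraries. The days did not overlap (log2 fold change 0.27 ± 0.07, adjusted p = 0.00137). Of 9 regions 3 were higher, the strongest at chr4:136183969-136184236 inside the gene, with 5.20, 4.51, 3.24 and 5.09 CPM in day 21 libraries, against 2.49, 2.87, 1.69 and 1.74 CPM in day 7 libraries (1.07 ± 0.23, adjusted p = 4.92e-04). Rb1 had 38.9, 43.1, 44.8 and 40.9 CPM in its distal sum at day 21 and 45.6, 34.7, 41.5 and 42.1 CPM at day 7. These overlapped and did not pass. Of 21 single regions, some of them in the gene body outside that sum, 2 were higher and 2 lower. The strongest was a higher one in the gene body at chr14:73234441-73234954 (0.39 ± 0.10, adjusted p = 0.00344), which is not part of the sum. E2f3 had 8 distal regions and none passed. The remaining members, Mcm4, Rrm1, Ccnb2, Ccne2 and Cdk2, had distal sums between 1.05 and 7.40 CPM on average and did not pass, although Ccnb2 passed without day 7 replicate 2 (adjusted p = 0.0276).

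Other genes of the pathway were read from lists made for this purpose. At gene ends, 20 of 49 further mitosis genes were lower (40.8%) and none higher, also at an unadjusted p under 0.05, beside 24.6% lower over all genes. Of these, Kif22, a kinesin on chromosome arms, had the smallest p, with 47.0, 53.2, 56.5 and 54.5 CPM in day 21 libraries, against 76.1, 87.9, 78.1 and 73.2 CPM in day 7 libraries (log2 fold change -0.57 ± 0.06, adjusted p = 1.01e-10). The spindle midzone gene Prc1 (-0.47 ± 0.08) and the kinetochore gene Ndc80 (-0.34 ± 0.07) followed. Of 43 further replication genes 10 were lower (23.3%) and 1, the primase subunit Prim2 (0.20 ± 0.08), was higher. The fork protection gene Timeless changed by -0.50 ± 0.09, the single-strand binding subunit Rpa1 by -0.43 ± 0.08 and the hemimethylated DNA reader Uhrf1 by -0.34 ± 0.07. Of 47 further regulators 11 were lower (23.4%) and 2 higher. With trended offsets, 10 further mitosis genes were lower and 1 higher, 7 replication genes lower and 2 higher, and 5 regulators lower and 4 higher, beside 12.3% lower and 11.9% higher over all genes.

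The 2 further regulators higher at gene ends without trended offsets were Btg2, an antiproliferative gene induced by p53, and Myc, a driver of growth. Btg2 ends had 96.3, 129, 108 and 107 CPM in day 21 libraries, against 80.9, 82.3, 78.1 and 83.0 CPM in day 7 libraries, with no overlap (log2 fold change 0.44 ± 0.06, adjusted p = 5.13e-08). Myc ends had 22.7, 19.7, 20.6 and 22.1 CPM in day 21 libraries, against 15.3, 14.3, 18.2 and 16.9 CPM in day 7 libraries (0.39 ± 0.10, adjusted p = 0.00172). Its days were apart as well. The INK4 inhibitor gene Cdkn2b was lower, with 8.3, 6.5, 5.36 and 8.25 CPM in day 21 libraries, against 11.8, 10.9, 11.1 and 14.0 CPM in day 7 libraries (-0.76 ± 0.14, adjusted p = 3.12e-05). Fzr1, a cofactor of the anaphase-promoting complex, and Ccng2, a cyclin tied to cell cycle arrest, changed by -0.32 ± 0.06 each.

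In distal regions, 13 of 40 further mitosis genes were higher (32.5%) and 4 lower, 6 of 38 replication genes were higher and 6 lower, and 7 of 39 regulators were higher and 4 lower, against 18.3% higher and 11.4% lower over all genes. With trended offsets 12 mitosis genes were higher and 5 lower, 4 replication genes higher and 6 lower, and 5 regulators higher and 5 lower. Over all 14483 genes tested distally, that scaling gave 2153 higher and 2177 lower. Ndc80 was higher in its distal sum (0.32 ± 0.05) and lower at its ends, and Smc4 of condensin (0.39 ± 0.07) and Anln of the cleavage furrow (0.27 ± 0.05) were also higher. Anln, Kif22, Cenpe, Cenpk and Knl1 were likewise lower at their ends and higher distally, whereas Bub1b and Ttk were lower in both. Cenpa, the centromeric histone, Ect2 and Ttk were lower at -0.50 ± 0.13, -0.38 ± 0.12 and -0.32 ± 0.11. Among replication genes the lowest was Dut, the dUTPase, with 1.13, 0.481, 1.47 and 0.783 CPM in day 21 libraries, against 4.49, 4.36, 4.55 and 4.85 CPM in day 7 libraries (-2.26 ± 0.29, adjusted p = 3.28e-09). Every day 7 library was at least 4 CPM and every day 21 library below 2 CPM. Mcm9 and Pole were lower at -0.43 ± 0.07 and -0.39 ± 0.08, and Cdc45, Pold1 and Gins2 were higher at 0.64 ± 0.14, 0.33 ± 0.10 and 0.18 ± 0.06.

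The distal sum of the INK4 and ARF gene Cdkn2a was 51.8, 52.8, 50.0 and 54.5 CPM in day 21 libraries, against 36.3, 36.1, 34.3 and 36.0 CPM in day 7 libraries (log2 fold change 0.55 ± 0.07, adjusted p = 2.66e-09). It is the neighbour of Cdkn2b, whose distal sum was lower (-0.46 ± 0.13), so adjacent loci moved in opposite directions. Btg2 and Cdkn3 were higher at 0.29 ± 0.04 and 0.87 ± 0.22, and Rbl2 and Mdm2 lower at -0.29 ± 0.11 and -0.16 ± 0.06.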

How the data were processed

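Whole-number counts, not normalized, were deposited by the authors for 8 ATAC-seq libraries over 1 common set of 128057 regions. The builds mm10 and GRCm38 and the tools bedtools, SAMtools, MACS2 2.1.0.20150603, Picard 1.65 and cutadapt 1.9 stand in the submitters' processing notes. What aligned and filtered the reads, how regions were merged, whether insertions were shifted or reads counted, and the counting base of coordinates are not given in the sources used here. A shift would move counts by a few bases. No per-sample column was left unused. Groups and replicate numbers came from the labels.

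Counts were summed per gene as described, with both annotated ends used because the gene table has no strand. A region in the windows of more than 1 gene was counted for all of them, which touched 8 members. CPM values and tests came from edgeR 4.0.16 in R 4.3.3. Regions or genes were filtered with filterByExpr, scaled with TMM factors of the region table (0.978 to 1.01), fitted with day as the only term by glmQLFit and tested by glmQLFTest, with Benjamini-Hochberg adjustment over all features tested and a threshold of 0.05. The SE is the size of the log2 fold change divided by the square root of F. CPM sums depend on the length of regions, so levels are not compared between genes. The fit was tested on simulated data with known changes. Precision is given as SD or SE over 4 libraries.

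Alternatives were DESeq2 1.42.0, limma-voom (limma 3.58.1), other scalings, windows, distances and filters, thinning, a replicate block and leaving out each library. Trended offsets remove a smooth trend of fold change with level in each library. Members and lists were chosen with earlier results of these data known. Values in every library are given for members past the threshold, up to 8 in each direction, and for 20 members fixed by name. For loci with a region past the threshold, the region with the smallest p was picked, up to a fixed number of loci in each direction. Of the lists, the 3 genes of smallest p per direction and readout are named. The symbols Claspn, Trac and Trbc1, as written in the lists, were not matched in the table of protein-coding genes and were not analysed here.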

Additional observations from a re-analysis of the deposited data

Results flagged for a closer look

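In 170 sets of 4 libraries (each member and named region on each day), 7 held 1 library that stood apart from the other 3 by a gap above the 95% critical value of Dixon's test, given as a share of the whole range; chance gives about 1 in 20. At the Mcm7 ends, day 21 replicate 3 had 90.6 CPM and the other day 21 libraries 81.6 to 81.9 CPM (gap 0.971 of the range). At the Cdc20 ends, day 7 replicate 1 had 30.7 CPM and the others 41.0 to 42.2 CPM (0.897). The same library was low at the Cdk1 ends, with 28.7 CPM and the others at 31.7 to 32.2 CPM (0.863). At the Cdk6 ends, day 7 replicate 2 had 4.89 CPM and the others 2.86 to 2.91 CPM (0.976). In the distal regions of E2f3, day 7 replicate 2 had 82.8 CPM and the others 71.8 to 73.0 CPM (0.892). In the distal sum of Rrm2, day 21 replicate 3 had 7.54 CPM and the others 10.8 to 11.3 CPM (0.853). That sum is a single region, which therefore counts a second time with the same value (0.853). Of these, only the Rrm2 sum passed the test between days, and it stayed past the threshold in all 17 alternatives, leaving out that library included.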

How the results depend on the processing

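Trended offsets moved most values: genes higher at their ends came to 1617 and lower to 1672, against 911 and 3338, and members to 2 higher and 2 lower, against 0 and 12, with a median of -0.03 against -0.11 at gene ends and -0.03 against 0.02 distally. Upper-quartile scaling gave 20 members lower at gene ends, beside 5002 of all genes against 3338. Its member medians were -0.16 and -0.04 at gene ends and distally. At gene ends 1 member was higher with windows of 2000 bp (Tyms), and 1 with windows of 500 bp and with the fuller end alone (Ccnd3 in both). Within 25 kb 5 members were higher distally, and in gene bodies alone 2 were lower. Without 1 library each, members lower at gene ends ran from 8 to 18 and their median from -0.18 to -0.09, all genes higher from 722 to 836 and lower from 2648 to 3757, and no member was higher (0 to 0). Distally, members higher ran from 7 to 9, lower from 5 to 6 and their median from -0.02 to 0.04, all genes higher from 2195 to 2447 and lower from 1402 to 1752. Signs turned for Ccnd3 at its listed starts (-0.19), Cdk1 and Cdkn2c distally in gene bodies alone (0.33 and -0.05) and Cdk6 within 25 kb (-0.02). The cause was not tested. The replicate numbers did not pair the samples: deviations of same-numbered libraries correlated at 0.0041 to 0.0098 and only replicate 2 correlated best with its own number. With the replicate as a block, 14 members were lower at gene ends and 0 higher, and distally 8 higher and 6 lower. Over all genes, the block gave 3642 lower and 961 higher at gene ends. Low sums (Cdk6 and Cdkn1a ends near 3 CPM, several distal sums under 5 CPM) limit what could be detected. The labels give no batch.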
